A study of Drosophila melanogaster with 53 samples.

Results

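The genes described here are the nuclear genes of Drosophila S2 cells whose deposited RNA level was lower after 1 h of 20-hydroxyecdysone (20E) than after DMSO, the solvent. They were chosen by their values, as the rows of the gene table with a ratio of (20E FPKM + 1) to (DMSO FPKM + 1) under 0.667, and 39 of 15598 genes are members. HLHm3, a gene of the Enhancer of split complex, and 7 loci of the mitochondrial genome were under the same ratio and are left out by the rule. FPKM is a count of sequenced fragments scaled to the length of the transcript and to the number of fragments mapped. Since the ratio chose the genes, every difference between the conditions given for them is a description and was not tested.

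The series holds 53 samples, of which the 4 RNA-seq libraries were used here, and its ChIP-seq samples were not analysed here. The libraries were made from polyA RNA of the S2-modencode line, 2 from cells given 0.3 μM 20E for 1 h and 2 from cells given the same amount of DMSO for 1 h. The titles of these libraries name no dsRNA, although the treatment text shared by the series describes dsRNA for other samples. The deposited tables have 1 value per gene and condition with a lower and an upper bound, whose level is not named, so no SD or n can be given and values in brackets below are these bounds.

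Ecdysone is the steroid hormone that times moulting and metamorphosis in insects, and 20E is its active form. 20E binds a nuclear receptor made of EcR and Ultraspiracle, which sits on DNA with or without the hormone and raises transcription of early genes, many of them transcription factors. For the level of an RNA to fall within a short treatment, the transcripts already made must also decay. S2 cells were derived from embryos and resemble hemocytes, the blood cells of the fly. Being a single cultured line, they are a model of a direct cell response and not of a tissue.

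The label of the cells was checked against marker lists. Of 13 hemocyte genes found, 11 had at least 1 FPKM in DMSO, among them srp, a GATA factor of blood cells (115 FPKM in 20E and 106 FPKM in DMSO), and Pxn, a peroxidasin (96.9 FPKM in 20E and 93.3 FPKM in DMSO). Hml, hemolectin, was near 0 (0.0944 FPKM in 20E and 0.104 FPKM in DMSO). At least 1 FPKM in DMSO was reached by 1 of 8 muscle genes (Tm1), 1 of 5 neuron genes (elav), 5 of 7 germ line genes (aub, bam, bgcn, osk and piwi) and 0 of 6 fat body genes. The summed level of the hemocyte list was 865 FPKM in 20E and 863 FPKM in DMSO, and that of the germ line list was 163 FPKM in 20E and 161 FPKM in DMSO. In bulk RNA, fewer cells that express a gene and less RNA per cell cannot be told apart.

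The promoters of 3 members with a named role in development are shown as examples. rost and Dad had the highest 20E levels among the members whose bounds do not overlap, and stg, the Cdc25 phosphatase of the fly, had the highest DMSO level of all 39. Each window runs from 200 bases before the start of the transcript with the highest DMSO level to 30 bases from that start on, is read 5′ to 3′ along the gene, and comes from the RefSeq copy of the Release 6 genome with transcript starts of the Ensembl BDGP6 annotation. Capitals mark GAGAG or its reverse complement CTCTC, the letters bound by GAGA factor, and TATAAA, the letters of a TATA box. The windows are chr2L:8989153-8989382 on the minus strand for rost, chr3R:17053807-17054036 on the plus strand for Dad and chr3R:29255296-29255525 on the minus strand for stg.
rost: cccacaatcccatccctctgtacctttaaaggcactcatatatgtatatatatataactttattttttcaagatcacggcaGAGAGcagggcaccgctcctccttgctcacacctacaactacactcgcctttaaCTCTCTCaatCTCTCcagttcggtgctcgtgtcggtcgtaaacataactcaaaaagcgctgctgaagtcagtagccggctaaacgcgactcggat
Dad: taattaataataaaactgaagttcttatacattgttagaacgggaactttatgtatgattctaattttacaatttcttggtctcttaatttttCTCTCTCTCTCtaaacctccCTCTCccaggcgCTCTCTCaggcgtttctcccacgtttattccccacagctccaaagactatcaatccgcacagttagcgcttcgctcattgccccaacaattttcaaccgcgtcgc
stg: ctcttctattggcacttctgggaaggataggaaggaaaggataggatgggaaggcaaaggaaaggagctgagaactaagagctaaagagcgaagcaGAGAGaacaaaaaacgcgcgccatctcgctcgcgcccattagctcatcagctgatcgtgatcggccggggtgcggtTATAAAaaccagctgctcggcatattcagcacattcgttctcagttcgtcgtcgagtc

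The rost window holds GAGAG at 4 places, the first of them 119 bases before the start, and some of these overlap each other. The Dad window holds it at 7 places between 107 and 73 bases before the start, 4 of them in 1 run of alternating C and T. In the stg window, TATAAA begins 28 bases before the start and GAGAG 104 bases before it. Motifs were searched on both strands in windows of the same 230 bases, for 38 members and 14829 genes in all. GAGAG was present in 16 members (42.1%) and in 25.2% of all promoters, and TATAAA in 11 members (28.9%) and in 38.3% of all promoters. TATCGATA, the letters bound by DREF, was in 1 member (2.63%) and in 7.59% of all promoters. GTGGGAA, bound by Suppressor of Hairless, was in Mtk and Peritrophin-15a (5.26% of members, 2.53% of all promoters), and CACGTG, an E-box, was in CG32669 and Uhg7 (5.26% of members, 2.90% of all promoters). AGGTCA, a nuclear receptor half-site, was in CG43255 alone among the members (2.63%) and in 4.53% of all promoters, and TTATGTAA was in 0 members and in 1.48% of all promoters. Among the 7844 nuclear genes with a window whose DMSO level allowed them to reach the ratio, the shares were 24.3% for GAGAG, 37.1% for TATAAA and 13.4% for TATCGATA. They were 2.35% for GTGGGAA, 2.77% for CACGTG, 4.13% for AGGTCA and 1.78% for TTATGTAA. A match describes letters in these windows and not a bound site.

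Among all genes, the ratio was under 0.667 for 0.301%, and for 0.583% of the 8068 genes whose DMSO level of 0.499 FPKM or more allowed them to reach it. The members had a median log2 change of -0.72 on the FPKM + 1 scale (lowest -3.47, highest -0.59), beside a median of 0 over all 15598 genes. The ratio was under 0.5 for 4 of the 39, and without the added 1 it was under 0.5 for 26. The 10 members under 1 FPKM in DMSO could not reach 0.5 on the FPKM + 1 scale, even at a 20E value of 0. Their median level was 1.02 FPKM in 20E (0 to 57.9 FPKM) and 2.75 FPKM in DMSO (0.514 to 87.5 FPKM). The median DMSO level of the genes that could meet the rule was 25.1 FPKM. In DMSO, 10 members were under 1 FPKM, 13 between 1 and 5 FPKM, 12 between 5 and 20 FPKM and 4 at 20 FPKM or more.

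For 5 of the 39 members the upper 20E bound was under the lower DMSO bound, which is called bounds apart here. Over all genes, bounds were apart with the lower value in 20E for 11 genes, or 0.0705% (0.136% of the genes that could meet the rule), and these are the 5 members, 5 mitochondrial genes and HLHm3. Since the ratio and the bounds come from the same contrast, nothing is read from the members' share. In the other direction bounds were apart for 67 genes (0.43%). The 5 members are rost, Dad, Su(z)2, tRNA:CR31506 and RpS28a, and the last pair owes its place to a listed 20E value of 0 with both bounds at 0. Bounds overlapped for the other 34 members.

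**Figure D1:**
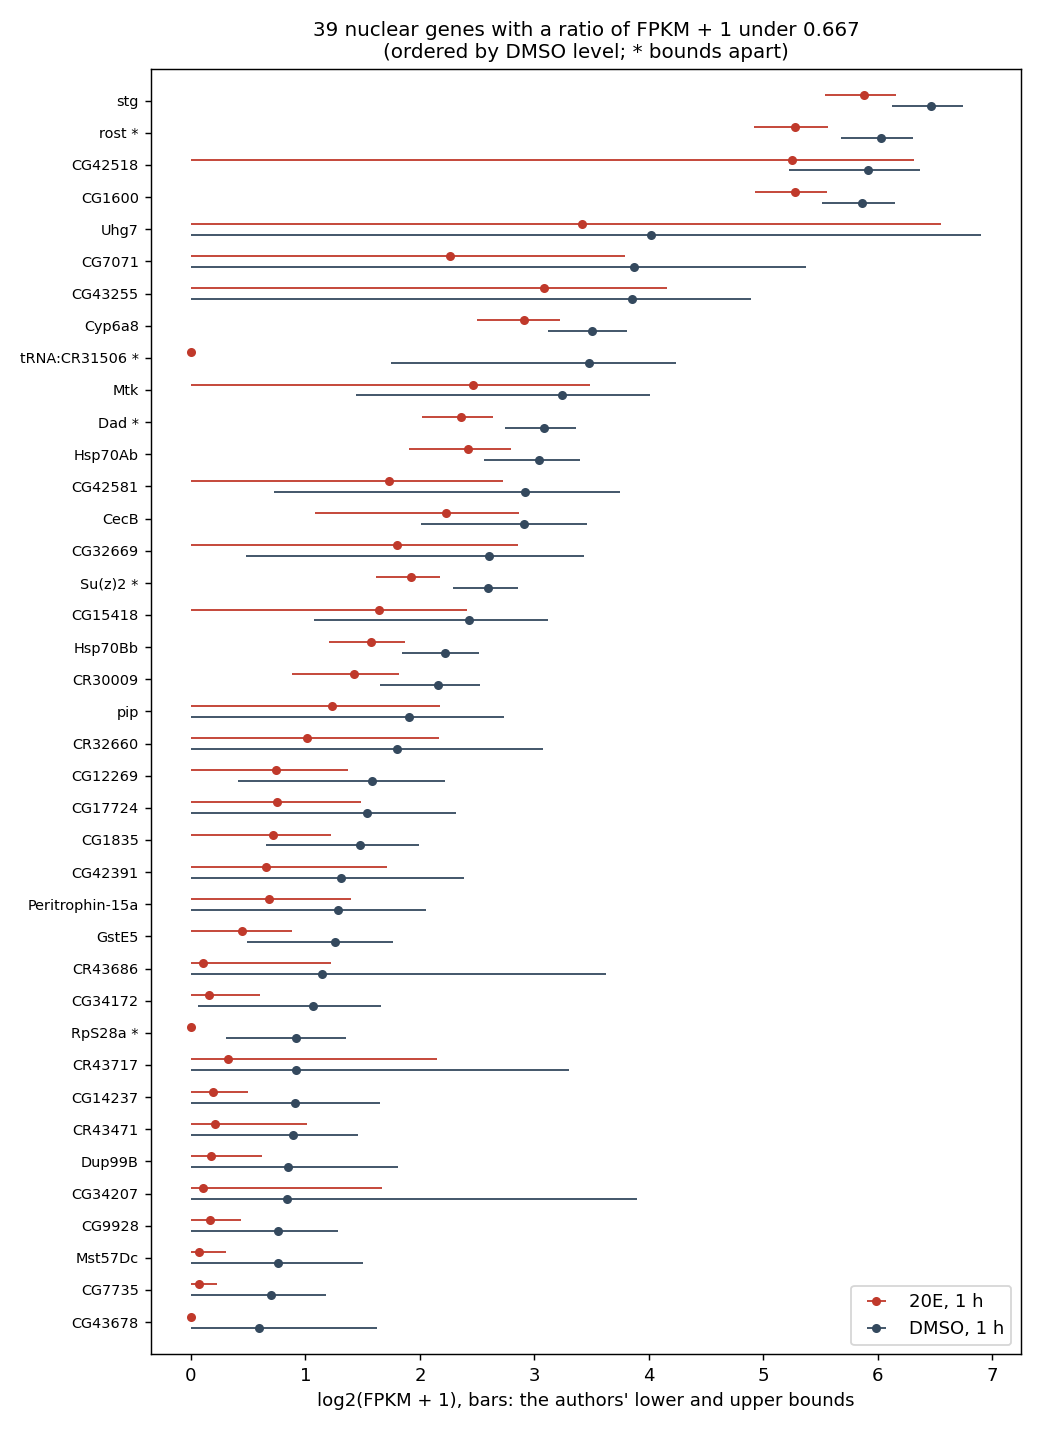
Level of each of the 39 members in 20E (red, upper point of each pair) and in DMSO (dark, lower point) on a log2(FPKM + 1) axis, with the authors' lower and upper bounds as bars and genes ordered by DMSO level. Bounds are apart for the 5 genes with an asterisk, and many of the lower rows have bars that reach 0.

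rost, rolling stone, encodes a membrane protein needed for the fusion of myoblasts in the embryo. It was at 37.8 FPKM in 20E (29.2 to 46.4) and at 64.2 FPKM in DMSO (50.3 to 78.1), which is 41.1% lower in 20E, with 3.89 FPKM between the nearest bounds. The gene (FBgn0011705) lies on 2L, from 8985936 to 8989539 in the table, whose build is not named there. It is alone in its locus, and all 3 of its transcripts were listed lower in 20E. FBtr0079782, which carried 88.9% of the DMSO level, was at 32.7 FPKM in 20E and 57.0 FPKM in DMSO. FBtr0331454 was at 4.99 FPKM in 20E and 6.56 FPKM in DMSO, a smaller difference in proportion. Of 16 genes of a myoblast fusion list, 11 had at least 1 FPKM in DMSO, 12 were listed lower in 20E and 4 higher, and rost is the only one of them with bounds apart in either direction. The next widest difference among those at 1 FPKM or more was that of Vrp1, the fly verprolin that acts with WASp on actin, at 79.6 FPKM in 20E (62.0 to 97.1) and 101 FPKM in DMSO (78.7 to 123). The median log2 change over the 11 list genes that could meet the rule was -0.0697. Of all 11779 genes above 0 in either condition, 50% were listed lower in 20E. Counts of lower genes in the lists here and below include members chosen for being lower and, in some lists, genes near 0. The receptors kirre, rst, sns and hbs, which join the fusing cells, were all under 0.3 FPKM in both conditions.

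Dad, Daughters against dpp, encodes the inhibitory Smad of the fly, a brake on signalling by the BMP ligand Dpp whose own gene is switched on by that pathway. It was at 4.14 FPKM in 20E (3.06 to 5.22) and at 7.50 FPKM in DMSO (5.71 to 9.29), or 44.8% lower in 20E, and the bounds lay 0.49 FPKM apart. Dad (FBgn0020493) is on 3R, from 12879729 to 12896135 in the table, and alone in its locus. Its 3 transcripts were each lower. FBtr0100160 was at 3.26 FPKM in 20E and 5.15 FPKM in DMSO, FBtr0083394 at 0.878 FPKM in 20E and 1.72 FPKM in DMSO, and FBtr0083393 at 0.0026 FPKM in 20E and 0.622 FPKM in DMSO. A list of 17 BMP pathway genes, drawn up after the values had been seen, had 12 genes with at least 1 FPKM in DMSO, and its median log2 change was -0.0187 over those that could meet the rule. Dad was the only gene of that list with bounds apart. The receptors tkv (8.01 FPKM in 20E and 8.01 FPKM in DMSO) and put (54.9 FPKM in 20E and 55.5 FPKM in DMSO) and the Smad Mad (17.1 FPKM in 20E and 17.4 FPKM in DMSO) had nearly equal values. The repressor brk, which the pathway turns off, was at 16.7 FPKM in 20E (7.58 to 25.9) and 21.9 FPKM in DMSO (11.5 to 32.3). shn, a zinc finger protein through which the pathway turns brk off, was at 25.9 FPKM in 20E (19.1 to 32.7) and 33.9 FPKM in DMSO (25.3 to 42.4), so that bounds overlapped for both. The ligand dpp itself was near 0, at 0.133 FPKM in 20E and 0.219 FPKM in DMSO, whereas gbb, a second BMP ligand, was at 60.7 FPKM in 20E and 54.8 FPKM in DMSO.

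Su(z)2, Suppressor of zeste 2, encodes a RING finger protein of the Polycomb group, the set of repressors that keep developmental genes silent. It was at 2.79 FPKM in 20E (2.08 to 3.51) and at 5.06 FPKM in DMSO (3.87 to 6.24), again 44.8% lower in 20E. Su(z)2 (FBgn0008654) is on 2R and alone in its locus, and is the member whose identifier is not in BDGP6. FBtr0300387 was at 1.89 FPKM in 20E and 3.87 FPKM in DMSO, and FBtr0087793 was at 0.906 FPKM in 20E and 1.18 FPKM in DMSO. All 18 genes of a Polycomb group list, also drawn up after the values had been seen, had at least 1 FPKM in DMSO, with 10 listed lower in 20E and 8 higher. The gene nearest to Su(z)2 in its change was Psc, its paralog, at 4.78 FPKM in 20E (3.64 to 5.92) and 7.06 FPKM in DMSO (5.44 to 8.67), with bounds that overlap. The median log2 change of the list was -0.0186, and 50% of all genes above 0 in either condition were listed lower in 20E. E(z), the methyltransferase of the group, was at 27.0 FPKM in 20E and 26.7 FPKM in DMSO, and Pc at 11.3 FPKM in 20E and 11.9 FPKM in DMSO.

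The remaining 2 members with bounds apart were listed at 0 in 20E, and no fold change is given for them. tRNA:CR31506, a tRNA gene of 84 bases in an intron of bon and on the other strand, was listed at 0 in 20E and at 10.1 FPKM in DMSO (2.36 to 17.9). Its ratio of FPKM + 1, 0.0900, was the lowest of all members. bon, which encodes the TIF1 protein Bonus, was at 30.3 FPKM in 20E (22.9 to 37.7) and 30.9 FPKM in DMSO (23.3 to 38.5). The libraries were made from polyA RNA, and mature tRNAs carry no polyA tail. RpS28a, the weakly expressed copy of a small ribosomal subunit protein gene, was listed at 0 in 20E and at 0.895 FPKM in DMSO (0.237 to 1.55). Its paralog RpS28b was at 5205 FPKM in 20E and 4760 FPKM in DMSO, and no 50-base word of RpS28a occurs a second time in the genome. That search took exact matches in genomic sequence only, and does not cover matches with mismatches or across splice junctions. Ef1alpha48D, an abundant elongation factor gene, is listed at 0 in both conditions, but with a status of too much data. Bounds were called apart only for genes with a status of OK in both conditions, which tRNA:CR31506 and RpS28a have. CG43678, inside the Sytbeta locus, was listed at 0 in 20E as well, and at 0.514 FPKM in DMSO with a lower bound of 0.

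stg, string, encodes the Cdc25 phosphatase that starts mitosis by removing inhibitory phosphates from Cdk1, and its transcription sets the time of division in many fly cells. It had the highest level of the members, 57.9 FPKM in 20E (45.5 to 70.2) and 87.5 FPKM in DMSO (68.8 to 106), which is 33.9% lower in 20E. Its bounds overlapped by 1.41 FPKM. stg (FBgn0003525) lies on 3R, from 25077540 to 25081502 in the table, has 1 transcript and is alone in its locus. Of 16 genes of a list for the G2 to M transition, drawn up after the values had been seen, all had at least 1 FPKM in DMSO, 9 were listed lower in 20E and 7 higher, and stg alone is a member. The median log2 change of that list was -0.0143, and 50% of all genes above 0 in either condition were listed lower in 20E. twe, the second Cdc25 gene, was at 3.90 FPKM in 20E (0.129 to 7.67) and 4.72 FPKM in DMSO (0.65 to 8.80). CycB was at 145 FPKM in 20E and 151 FPKM in DMSO, and cdc2, which encodes Cdk1, at 87.8 FPKM in 20E and 89.0 FPKM in DMSO. trbl, whose product Tribbles promotes the breakdown of String, was at 16.1 FPKM in 20E (12.4 to 19.8) and 19.0 FPKM in DMSO (14.7 to 23.4).

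A further pair of members, both alone in their locus on 2R, had bounds that overlapped little. CG1600, named Drat in BDGP6, was at 37.7 FPKM in 20E (29.4 to 46.1) and 57.3 FPKM in DMSO (44.7 to 69.8), so that the bounds overlapped by 1.35 FPKM. Its 3 transcripts were each lower, with FBtr0088957 at 33.5 FPKM in 20E and 45.6 FPKM in DMSO, FBtr0088958 at 4.05 FPKM in 20E and 10.9 FPKM in DMSO, and FBtr0088956 at 0.203 FPKM in 20E and 0.711 FPKM in DMSO. Both minor transcripts had a wider difference in proportion than the main one. Cyp6a8, a cytochrome P450 of the family that acts on foreign compounds and is known to be inducible, was at 6.49 FPKM in 20E (4.65 to 8.34) and 10.3 FPKM in DMSO (7.67 to 13.0). Of 12 Cyp6a genes listed after the values had been seen, 9 were lower in 20E, 2 higher and 0 had bounds apart. Over all genes above 0 in either condition, 50% were lower in 20E. Cyp6a20 was at 71.7 FPKM in 20E and 80.1 FPKM in DMSO, and Cyp6a22 was higher, at 22.0 FPKM in 20E and 19.7 FPKM in DMSO.

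**Figure D2:**
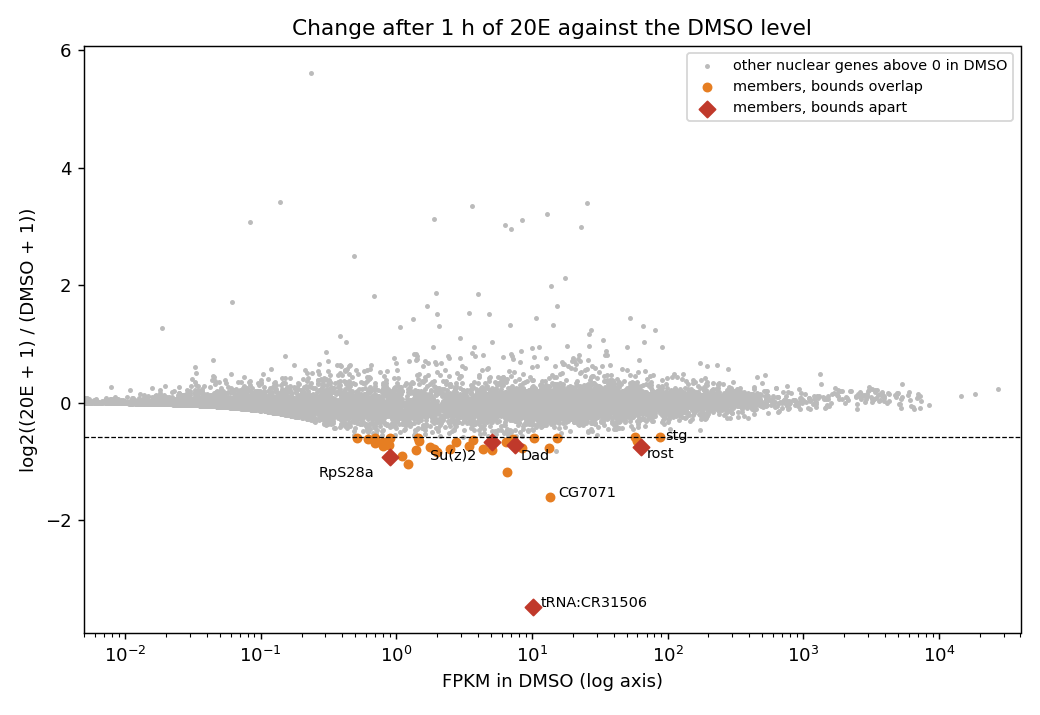
Change of each nuclear gene above 0 in DMSO, as log2 of the ratio of FPKM + 1 of 20E over DMSO, against its DMSO level on a log axis. Members lie under the dashed line of the rule, with diamonds for bounds apart. The single other point under the line is HLHm3, and most members stand at the left, where the cloud of other genes is wide.

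The members just inside the limit were Cyp6a8, CG1600 and stg, with ratios of 0.661, 0.665 and 0.665. Just outside it were CG34234 (1.73 FPKM in 20E and 3.09 FPKM in DMSO, ratio 0.667), CG33702 (0.0245 FPKM in 20E and 0.534 FPKM in DMSO, ratio 0.668) and CG12744 (10.5 FPKM in 20E and 16.2 FPKM in DMSO, ratio 0.668). All 3 of these have a lower 20E bound of 0.

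Low was set as under 5 FPKM in DMSO, and wide as DMSO bounds further apart than the DMSO value itself or a 20E value listed at 0. By these limits 23 members were low, 29 wide, 21 both, and 31 were low, wide or both. The 8 that were neither are rost, Dad, Su(z)2, stg, CG1600, Cyp6a8, Hsp70Ab and CG42518, although the 20E bounds of CG42518, 0 and 78.7 FPKM, are further apart than its value. The lower DMSO bound was 0 for 18 members. Among the members above 0 in 20E, the lower 20E bound was 0 for 26 and above 0 for 10. The distance between the DMSO bounds had a median of 1.85 times the DMSO value over the members and of 0.497 times over the genes that could meet the rule.

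The members' transcripts were short. Their main transcript, the one with the highest DMSO level, had a median length of 566 bases for the 37 members with a length in BDGP6, against 1803 bases for 7581 genes that could meet the rule. It was under 500 bases for 17 of the 37 members (45.9%) and for 2.98% of those genes, and it had a single exon for 16 members (43.2%) and for 10.9% of those genes. Low level and short length came together only in part, since the genes that could meet the rule and were under 5 FPKM in DMSO had a median of 1626 bases, with 4.31% under 500 bases. The 15 members with a length and at least 5 FPKM in DMSO had a median of 1378 bases, but 6 of them (40%) were under 500 bases. Among the low members with a length, 50% were. Of 38 members with a biotype, 31 are protein-coding, 6 are noncoding RNA genes and 1 is a tRNA gene, so that 18.4% are noncoding, beside 2.03% of the genes that could meet the rule. By chromosome arm, 13 members are on 3R (33.3%, beside 24.6% of the genes that could meet the rule), 11 on 2R (28.2% beside 20.5%), 6 on 2L (15.4% beside 17.4%), 6 on X (15.4% beside 17.2%) and 3 on 3L (7.69% beside 19.1%).

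**Figure D3:**
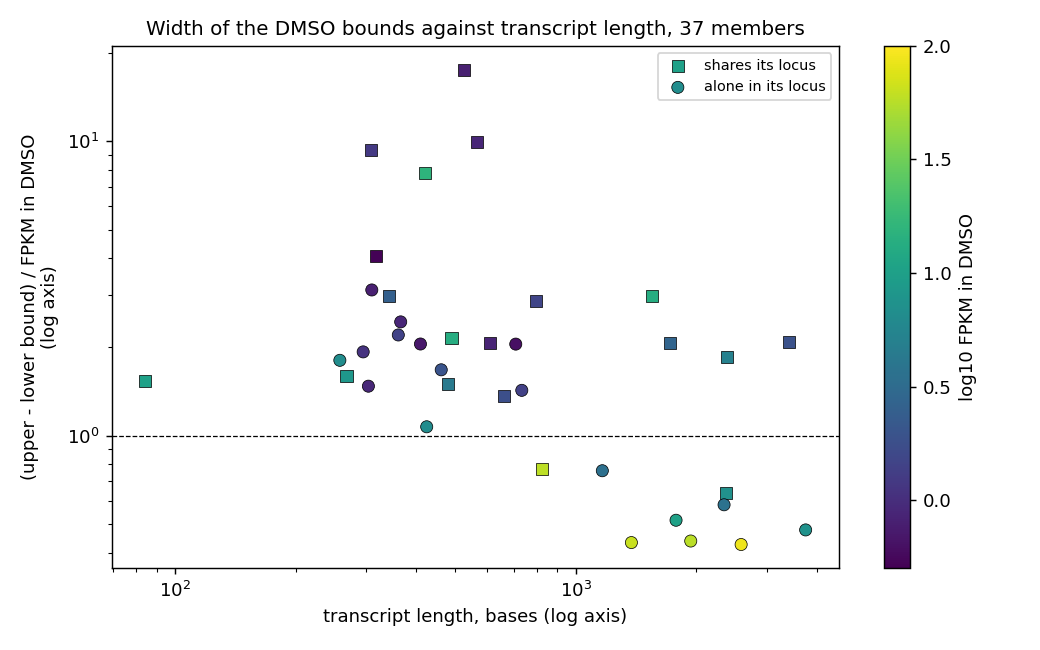
Distance between the DMSO bounds divided by the DMSO FPKM, on a log axis, against the length of the main transcript in bases, on a log axis, for the 37 members with a length. Squares share a locus with another gene, circles do not, colour gives log10 of the DMSO FPKM, and the dashed line marks the limit for wide. The points under the line are members of 825 bases or more.

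Of the members, 19 lie in a locus that the table gives to more than 1 gene, as do 46.6% of the genes that could meet the rule, and 17 of these 19 were wide. The other 20 are alone, and 12 of them were wide. Where transcripts overlap, a fragment can be assigned to either gene, so the levels of the genes in a locus are not independent of each other. By the BDGP6 exons, 11 members share exon bases with another gene, and 7 share at least 50% of them. Shared exon bases, and wide bounds by locus, were not counted over the other genes. These counts are therefore not read as particular to the members.

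CG7071, the member with the second lowest ratio, shares 96.7% of its exon bases with muted, whose product belongs to the BLOC-1 complex of vesicle transport. CG7071 was at 3.79 FPKM in 20E (0 to 12.8) and 13.6 FPKM in DMSO (0 to 40.5). muted was the other way, at 29.8 FPKM in 20E (17.6 to 41.9) and 19.3 FPKM in DMSO (0 to 47.4). Their sum was 33.5 FPKM in 20E and 32.9 FPKM in DMSO, a ratio of FPKM + 1 of 1.02. CG42518 gave the same picture at a higher level. It shares 96.9% of its exon bases with MED9, a subunit of the Mediator complex, and was at 37.1 FPKM in 20E (0 to 78.7) and 59.1 FPKM in DMSO (36.4 to 81.8). MED9 was at 52.5 FPKM in 20E (13.0 to 92.0) and 26.4 FPKM in DMSO (7.92 to 44.8), and the pair summed to 89.6 FPKM in 20E and 85.5 FPKM in DMSO. In neither pair was the sum lower in 20E.

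Over the 19 members with company in their locus, the sum over all genes of the locus stayed under the ratio of 0.667 for 4 (CG15418, Mtk, CG1835 and CG43678) and lay between 0.9 and 1.1 for 10. These sums add FPKM of genes of unequal length and are not fragment counts. Of the 10 between 0.9 and 1.1, CG42518 made up 69.2% of its sum in DMSO and CG7071 14.7%. The others made up 8.39% or less, down to 0.452% for Uhg7. Where the member is so small a part, the sum follows the neighbours and says little about the member. Another gene of the locus had at least 1 FPKM in DMSO for 15 of the 19. Of the 4 whose sum stayed under the ratio, only CG15418 had such a neighbour. Mtk, CG1835 and CG43678 made up 98.9%, 96.8% and 58.6% of their own sums in DMSO, so those sums largely repeat the values that chose the genes. Uhg7, a host gene of small nucleolar RNAs, lies wholly within the exons of RpL23A, a large ribosomal subunit protein gene. It was at 9.70 FPKM in 20E (0 to 92.8) and 15.2 FPKM in DMSO (0 to 118), while RpL23A was at 3471 FPKM in 20E and 3343 FPKM in DMSO. CR32660 lies wholly within the exons of Sclp, which was lower too, at 17.8 FPKM in 20E (12.8 to 22.9) and 23.6 FPKM in DMSO (17.2 to 30.0). CG15418 shares 75.3% of its exon bases with Dot, on the other strand, and Dot was at 3.14 FPKM in 20E (2.12 to 4.15) and 4.41 FPKM in DMSO (3.08 to 5.74). Bounds overlapped for both neighbours.

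**Figure D4:**
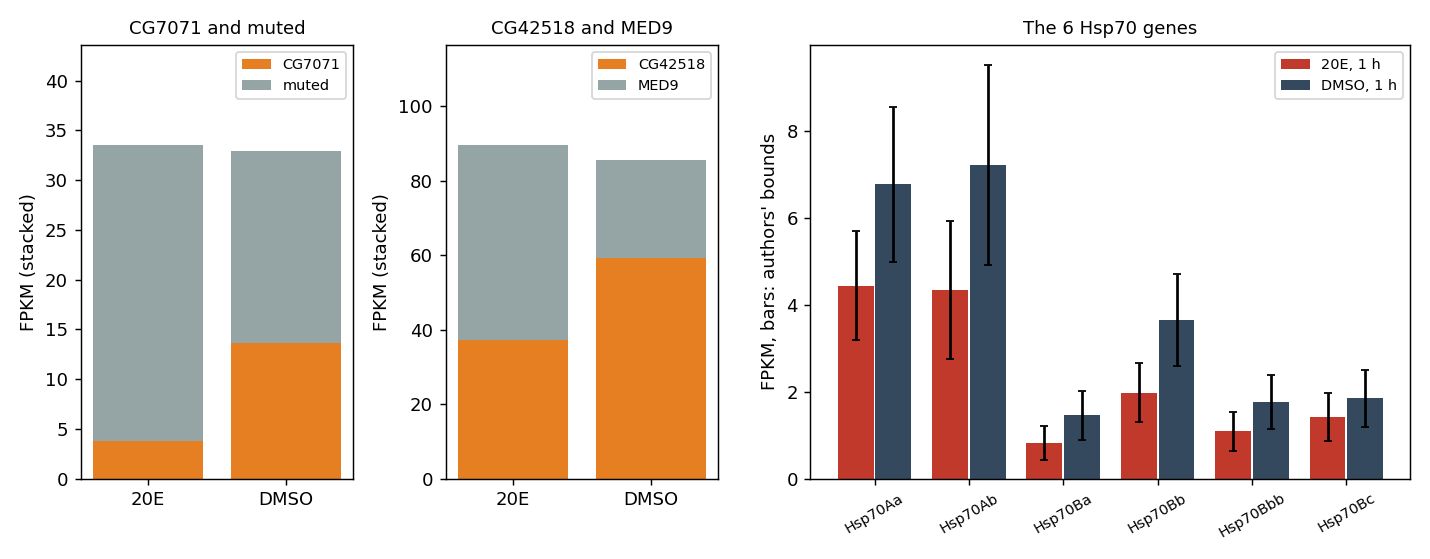
Left and middle, FPKM of CG7071 with muted and of CG42518 with MED9, stacked, in 20E and in DMSO. The stacks reach 33.5 and 89.6 FPKM in 20E and 32.9 and 85.5 FPKM in DMSO, while the members' own parts (orange) are smaller in 20E. Right, FPKM of the 6 Hsp70 genes in 20E (red) and in DMSO (dark) with the authors' bounds, in which every 20E bar is lower and every pair of bounds overlaps.

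The Hsp70 genes encode the heat shock chaperone of the fly in near-identical copies, and 2 of them are members. Hsp70Ab was at 4.34 FPKM in 20E (2.75 to 5.93) and 7.21 FPKM in DMSO (4.91 to 9.52), and Hsp70Bb was at 1.98 FPKM in 20E (1.31 to 2.65) and 3.65 FPKM in DMSO (2.59 to 4.71). Of their 50-base words, 99.2% for Hsp70Ab and 95.1% for Hsp70Bb occur more than once in the genome, so the division of reads between the copies is uncertain. Hsp70Aa was at 4.44 FPKM in 20E and 6.78 FPKM in DMSO, and Hsp70Ba at 0.821 FPKM in 20E and 1.45 FPKM in DMSO. Hsp70Bbb was at 1.09 FPKM in 20E and 1.76 FPKM in DMSO, and Hsp70Bc at 1.42 FPKM in 20E and 1.84 FPKM in DMSO. All 6 copies were thus listed lower in 20E, none with bounds apart, and their sum was 14.1 FPKM in 20E and 22.7 FPKM in DMSO. The list was drawn up after the values had been seen and includes the 2 members. With reads so hard to divide between the copies, their 6 directions are not independent of each other. Over all genes above 0 in either condition, 50% were listed lower in 20E.

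The members with a part in immunity are CecB, a cecropin, and Mtk, Metchnikowin, both secreted peptides that kill microbes and are induced through the Toll or Imd pathways. CecB was at 3.70 FPKM in 20E (1.12 to 6.27) and 6.49 FPKM in DMSO (3.02 to 9.97). Mtk was at 4.51 FPKM in 20E (0 to 10.2) and 8.43 FPKM in DMSO (1.71 to 15.2). Both are short, at 425 and 268 bases, and their bounds overlap. Of 14 antimicrobial peptide genes, listed after the values had been seen, 10 were lower in 20E and 4 higher, and 0 had bounds apart. Only 6 of the 14 had at least 1 FPKM in DMSO, and over all genes above 0 in either condition, 50% were lower in 20E. CecA1, the highest of the 14, was at 31.4 FPKM in 20E (20.7 to 42.1) and 42.5 FPKM in DMSO (29.1 to 55.9). Drs, Drosomycin, was higher, at 5.03 FPKM in 20E (1.81 to 8.25) and 3.71 FPKM in DMSO (1.00 to 6.42).

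The other members above 5 FPKM in DMSO rest on wide bounds. CG42581, with the third lowest ratio, has a transcript of 258 bases of whose 50-base words 49.4% are repeated in the genome, and was at 2.32 FPKM in 20E (0 to 5.63) and 6.53 FPKM in DMSO (0.651 to 12.4). CG43255, a gene of 1 exon within the span of rdgA, was at 7.49 FPKM in 20E (0 to 16.8) and 13.5 FPKM in DMSO (0 to 28.8). CG32669 was at 2.48 FPKM in 20E (0 to 6.24) and 5.08 FPKM in DMSO (0.393 to 9.77), in a locus with sbr and CG15209. The bounds of these 3 genes overlap, and each has a lower 20E bound of 0.

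Among the low members, CR30009, a noncoding RNA gene alone in its locus, was the best measured beside Hsp70Bb. It was at 1.68 FPKM in 20E (0.839 to 2.52) and 3.46 FPKM in DMSO (2.15 to 4.77). The other 4 noncoding genes with a CR symbol, CR43686, CR32660, CR43471 and CR43717, had lower DMSO bounds of 0. pip, pipe, which encodes a sulfotransferase used in the ovary to set the dorsoventral axis, was at 1.34 FPKM in 20E (0 to 3.52) and 2.75 FPKM in DMSO (0 to 5.66). GstE5, a glutathione S-transferase, was at 0.362 FPKM in 20E (0 to 0.839) and 1.40 FPKM in DMSO (0.402 to 2.39). It was the only member among 10 genes of its family, of which GstE6 was the highest, at 393 FPKM in 20E and 422 FPKM in DMSO. Peritrophin-15a, a chitin-binding protein of the gut lining, was at 0.603 FPKM in 20E and 1.44 FPKM in DMSO.

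Several low members are known from tissues unlike S2 cells. Mst57Dc, a peptide of the male accessory gland, was at 0.0479 FPKM in 20E (0 to 0.236) and 0.696 FPKM in DMSO (0 to 1.83), and Dup99B, a peptide of the ejaculatory duct, was at 0.126 FPKM in 20E (0 to 0.534) and 0.802 FPKM in DMSO (0 to 2.50). Of 13 seminal fluid protein genes, listed after the values had been seen, 6 were listed at 0 in both conditions and 3 had at least 1 FPKM in DMSO. CG7735, named Arl6 in BDGP6 and encoding a small GTPase of the Arf family, was at 0.0494 FPKM in 20E (0 to 0.17) and 0.621 FPKM in DMSO (0 to 1.27). The other low members, CG34172, CG12269, CG17724, CG1835, CG34207, CG14237, CG42391 and CG9928, had DMSO levels between 0.699 and 1.99 FPKM and overlapping bounds, and no role is given for them here.

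Depth is not stated in the tables, and the spacing of low values was examined in its place. Values were FPKM multiplied by an effective transcript length, which rests on an assumed fragment length, for genes with 1 transcript and alone in their locus. The step size of each column was chosen to fit its own low values best. The shares are therefore not those of a step fixed beforehand. Among values of up to 8 steps, 98.8% of 341 in DMSO fell within 0.05 of a whole number of steps. Values spread evenly would give 10% for a fixed step. In 20E, 75.8% of 335 did so with 1 step size, and 99.4% did so with a small step and a second one worth 2.79 small steps. That second size was searched for the highest share, and the largest of the sizes that fitted about alike was kept. The spacing was read only from such low values and gives no fragment count for the members, so their precision is taken from the bounds.

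At the level of transcripts, the 39 members have 65, and 28 members have only 1. Of the 50 transcripts with at least 0.1 FPKM in DMSO, 49 were listed lower in 20E, which follows in part from the choice of the genes. The exception was FBtr0330663 of CG34172, at 0.117 FPKM in 20E and 0.109 FPKM in DMSO.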

How the data were processed

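RNA-seq was done on 4 libraries of S2 cells, 2 given 0.3 μM 20E and 2 given DMSO for 1 h. The authors deposited FPKM values of 15598 genes and 28704 transcripts with 1 column per condition and, for genes, a lower and an upper bound and a status, in a layout like that of Cuffdiff. How the 2 libraries of a condition entered a column is not stated. The transcript table also holds the authors' fold change, test statistic, p-value and q-value, which were not used. The submitters' processing notes name TopHat2, Bowtie2 2.3.4.2, dm3 and dm6 without roles, and the RNA-seq pipeline is not given in the sources used here. In BDGP6, 14921 gene identifiers were found, but only 11.3% of 8692 genes alone in their locus stood at the same place, so file positions were not combined with that build.

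Members were chosen by the ratio of FPKM + 1. The members and lists were chosen with earlier results of these data known, and the BMP, Polycomb, G2/M, Hsp70, antimicrobial peptide, glutathione S-transferase, Cyp6a and seminal fluid lists after their values had been seen. The design allowed for limma if there were replicate columns. As there were none, no test was run, and no p-value is given. Named in full by rule were members with bounds apart and at least 5 FPKM in DMSO, the 3 highest in DMSO and the 3 lowest in ratio, and the others are examples. An Enhancer of split list of 16 genes had 1 with bounds apart, HLHm3, and an immediate early list of 13 genes had 0 lower and 1 higher, raw. The median ratio of 7531 genes at 1 FPKM or more in both conditions was 1.0015, so columns were used as deposited, with 0 per-sample columns left unused. Lengths, exons, biotypes and repeated 50-base words came from BDGP6 and the RefSeq Release 6 genome by identifier. Alternatives were other pseudocounts, filters, ratios, a scaled column, transcript sums and locus sums. Scripts were tested on simulated data and written for pandas 2.3.3 with NumPy 2.4.6, under Python 3.11.15, and figures were drawn in Matplotlib 3.10.9.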

Additional observations from a re-analysis of the deposited data

How the results depend on the processing

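The number of genes under the limit depended on the pseudocount, with 589 genes at a pseudocount of 0.1 and 95 with none and at least 1 FPKM in DMSO, against 39 as reported. All 39 were among the 589, and 29 of them among the 95. Requiring a mean level of 5 FPKM left 13 genes and a mean level of 1 FPKM left 26. A ratio under 0.5 gave 4 genes, a ratio under 0.75 gave 136, and scaling the 20E column to the median ratio gave 40. Of the 5 genes with bounds apart, 3 had a mean level of 5 FPKM or more, namely rost, Dad and tRNA:CR31506, which was listed at 0 in 20E. Su(z)2 was under that mean level. The median log2 change of the 39 was -1.22 with a pseudocount of 0.1 and -1.36 with none, against -0.72. Replacing members by the sum over their locus, an alternative chosen after seeing the data, left 24 members. These include the 20 alone in their locus, whose values the sum cannot change. The log2 change of the sum was positive for CG7071 (0.0481), CG32669 (0.0349), CG42518 (0.067) and Uhg7 (0.0511). It was negative for the other 15 members with a shared locus. The cause was not tested. In DMSO, CG42518 made up 69.2% of its locus sum, CG7071 14.7%, CG32669 3.34% and Uhg7 0.452%. The sums of CG32669 and Uhg7 thus follow their neighbours, whatever the member does. Scaling by the median ratio of 1.0015 left the sign of all 39 single changes as it was, and could not have changed any of them. With low set under 2 FPKM, 29 members were low or wide, and with wide set above 0.75, 32 were, both chosen after seeing the data. No paired analysis was possible because the tables hold 1 column per condition and no replicate columns, and for the same reason no replicate could be left out. Depth is known only as steps, and the authors' bounds are the only error given.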

Other observations

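The low values of the 20E column fell on sums of a small and a larger step, the larger worth 2.79 small steps, which placed 99.4% of 335 values within 0.05 of such a sum, while a median of 77% was placed over other sizes of the second step. Among the members, CG14237 stood at 2.82 small steps in 20E, about 1 of the larger ones. The larger step was picked for the highest share, so 99.4% is a fitted maximum. The DMSO column needed a single step size. The reason was not tested.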
